A study of Mus musculus with 8 samples.

Results

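A set of 7 regulators of gene expression in haploid male germ cells were followed through RNA sequencing of mouse spermatids: Rfx2, Rfx4, Sox30, Tcfl5, Spz1, Brdt and Kdm3a. They were found by gene symbol in the deposited table, where all 7 of 7 were present among 16349 genes. All 7 passed the filter on low values, which kept 15685 genes with a normalized read count of at least 10 in at least 2 libraries. Every sample came from C57BL/6 mice and pooled 8 testes, from which spermatids were separated by centrifugal elutriation, a sorting of cells by size and density. Round spermatids, the early haploid cells, and elongating spermatids, the later cells with condensing nuclei, were each labelled WT or cKO, the conditional knockout of Carm1. Each of the 4 groups held 2 libraries of poly A RNA. No Cre driver and no age of the mice is named in the sources used here. CARM1 is an arginine methyltransferase that can act as a transcriptional coactivator, and the design asks which genes differ when it is lost at each stage.

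RFX proteins are winged-helix transcription factors that bind the X-box, an imperfect inverted repeat found in promoters of ciliary genes. RFX2 is needed for spermatids to mature and grow flagella, RFX4 is a relative with a testis transcript form, and SOX30 is an HMG-box factor without which mouse spermatids arrest at the round stage. TCFL5 is a basic helix-loop-helix factor of meiotic and haploid germ cells that acts in a circuit with A-MYB, the product of Mybl1, and SPZ1 is a testis helix-loop-helix zipper protein. BRDT is the testis member of the BET family, whose bromodomains read acetylated histones, and KDM3A removes repressive methyl groups from histone H3 and is needed for full expression of transition protein and protamine genes.

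Rfx2, Sox30 and Tcfl5 had nearly the same course over the 8 libraries, so their promoters are shown. Each runs from 250 bases before to 50 bases after the RefSeq start on GRCm38.p6, 5′ to 3′ on the gene's own strand. Capitals mark the A-MYB core AACNG and the X-box arm GTTNCC on either strand, and the 2 can overlap. The windows are chr17:56830959-56831258 on the minus strand for Rfx2, chr11:45980060-45980359 on the plus strand for Sox30 and chr2:180642642-180642941 on the minus strand for Tcfl5.
Rfx2: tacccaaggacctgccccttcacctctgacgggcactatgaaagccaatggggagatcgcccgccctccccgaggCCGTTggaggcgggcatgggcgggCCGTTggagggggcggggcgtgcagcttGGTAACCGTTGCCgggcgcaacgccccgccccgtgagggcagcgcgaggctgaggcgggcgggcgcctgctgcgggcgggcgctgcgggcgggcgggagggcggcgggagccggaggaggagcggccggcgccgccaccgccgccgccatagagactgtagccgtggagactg
Sox30: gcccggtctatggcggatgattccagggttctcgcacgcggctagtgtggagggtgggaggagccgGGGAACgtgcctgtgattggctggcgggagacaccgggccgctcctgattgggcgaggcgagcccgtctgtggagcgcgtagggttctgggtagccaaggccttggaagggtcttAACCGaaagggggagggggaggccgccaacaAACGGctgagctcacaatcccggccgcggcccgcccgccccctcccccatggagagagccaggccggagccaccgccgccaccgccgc
Tcfl5: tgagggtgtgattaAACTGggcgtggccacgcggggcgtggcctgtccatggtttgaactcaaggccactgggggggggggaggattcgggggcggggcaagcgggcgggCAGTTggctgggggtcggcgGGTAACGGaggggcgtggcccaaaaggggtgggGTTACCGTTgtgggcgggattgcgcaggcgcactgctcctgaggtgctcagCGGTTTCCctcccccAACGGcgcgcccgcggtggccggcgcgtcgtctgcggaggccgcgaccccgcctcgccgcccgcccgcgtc

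The A-MYB core matched 4 times in the Rfx2 window, 2 times in that of Sox30 and 6 times in that of Tcfl5. The X-box arm matched 2, 1 and 3 times. In the Rfx2 window both X-box arms lie in 1 capital run together with 2 of the A-MYB matches, in the order GGTAAC and then GTTGCC. The share of windows with such a run was not counted, and whether arms in this order make an X-box was not tested. These short patterns are common. Of 32851 promoter windows of 300 bases, 80.3% held the A-MYB core and 45.3% the X-box arm. The cAMP response element TGACGTCA, the site class bound by CREM, was in 1.79% of windows and the E-box CACGTG in 7.15%. Neither matched in the Rfx2, Sox30 or Tcfl5 window, and among the 7 regulators the E-box matched in that of Brdt alone. The shorter TGACG, in 20.8% of windows, matched once in the Rfx2 window and once at 1 of the 2 listed starts of Rfx4. The SOX core ACAATG, in 12.6% of windows, matched at Rfx4 and Spz1. All 7 regulators had an entry, 5 of them with 1 listed start. A match says that the letters are there and not that a factor binds.

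Values are normalized read counts, that is reads of a gene divided by the authors' size factor of the library, given as mean ± SD with n = 2 libraries. Recovered reads ranged from 17190962 to 23526694 per library, and the 7 regulators had from 423 to 159451 reads each in a library. Adjusted p-values come from limma on log2(value + 1) over all genes tested, two-sided. "Rose", "fell", "higher" and "lower" as calls mean an adjusted p under 0.05. No label states that the 2 libraries of a group stem from different animals. The p-values therefore reflect only how far these libraries vary, which may be technical. Carm1 went from 1668 ± 26.2 in round WT to 1259 ± 119 in round KO, but from 4421 ± 159 in elongating WT to 8075 ± 116 in elongating KO libraries. The second change goes against the label, and KO-labelled is used below for that reason. A total over the gene does not tell if the deleted part is gone.

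By their summed share of reads, the 8 elongating markers separated the stages and the 6 round markers did so little. The 8 elongating spermatid markers, such as Prm1 and Odf1, took 11.0% of reads in elongating WT, 12.5% to 12.7% in elongating KO-labelled and 1.46% to 1.58% in round libraries. The 6 round spermatid markers, such as Acrv1 and Spaca1, took 0.378% to 0.432% in round, 0.340% to 0.343% in elongating WT and 0.309% to 0.319% in elongating KO-labelled libraries. With the deposited scaling, 4 of these 6 were called lower in elongating than in round spermatids and 2 higher in each genotype. Their median log2 change was -1.33 in WT and -2.27 in KO-labelled cells. With total-count scaling, that is as a share of all reads, 5 were called lower and 1 higher in each genotype. Of the 28 spermatocyte markers, all measured, the summed share was 0.463% to 0.464% in round WT, 0.499% to 0.508% in round KO-labelled, 0.10% to 0.103% in elongating WT and 0.0894% to 0.0910% in elongating KO-labelled libraries. The 15 macrophage markers took 0.0504% to 0.0507% of reads in elongating WT and 0.0152% to 0.0155% in elongating KO-labelled libraries, with 0 of 15 at a count of 0. The 22 measured of 23 Sertoli markers took 0.0341% to 0.0342% and 0.0160% to 0.0162% of reads in the same groups, and 0.0064% to 0.00656% in round WT against 0.00394% to 0.00396% in round KO-labelled libraries. Of 21 tested, 12 were called lower in round and 10 in elongating KO-labelled spermatids, and 0 higher. The spermatogonia markers (17 of 20 measured) took 0.0201% of reads in round WT, 0.017% in round KO-labelled, 0.00545% to 0.0056% in elongating WT and 0.00309% to 0.0033% in elongating KO-labelled libraries. Leydig markers (4 of 8) and peritubular and vascular markers (12 of 12) took at most 0.000339% and 0.00522% in any library. Of all these markers, only Fshr, of Sertoli cells, was at a count of 0, in the round KO-labelled libraries. The part of these shifts in the results below was not tested. In bulk RNA, fewer cells of a type and less RNA per cell cannot be told apart.

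Per kilobase of exon, with exon lengths from GENCODE M21, the normalized level of Spz1 was the highest of the 7 in all 4 groups. It was 9147 ± 110 per kilobase in round WT and 123300 ± 705 in elongating WT libraries. Sox30 followed at 1632 ± 72.6 per kilobase in round WT, then Tcfl5 at 1206 ± 26.4, Rfx2 at 1128 ± 39.8, Brdt at 793 ± 7.31, Rfx4 at 341 ± 14.6 and Kdm3a at 212 ± 1.59. No neighbours in this order had overlapping libraries in any group. Tcfl5 and Rfx2 were the closest pair. Tcfl5 lay above Rfx2 per kilobase in both WT groups, and Rfx2 above Tcfl5 in both KO-labelled groups. In round KO-labelled libraries the lowest Rfx2 value, 1176 per kilobase, was just over the highest of Tcfl5, 1172. These levels assume that all annotated exons are used, and a shorter isoform would have a higher level.

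**Figure D1:**
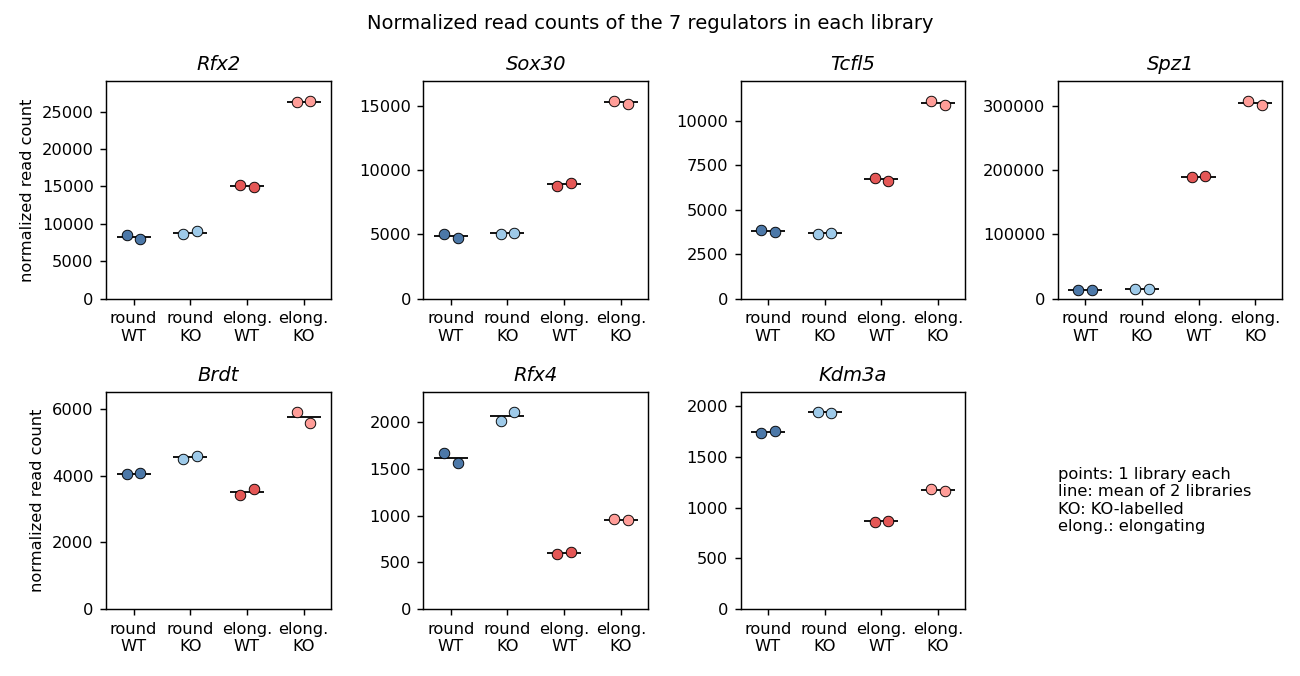
Normalized read counts (vertical axes, from 0, a scale of its own per gene) of the 7 regulators in round and elongating, WT and KO-labelled libraries. Points are single libraries and lines are means of 2. Rfx2, Sox30 and Tcfl5 share the steps up to elongating WT and on to elongating KO-labelled libraries. From round WT to round KO-labelled libraries the mean of Tcfl5 steps down and those of Rfx2 and Sox30 step up. Spz1 is far higher in elongating libraries, and Rfx4 and Kdm3a are highest in round KO-labelled ones.

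Rfx2 (chromosome 17, 56775897 to 56831013, GRCm38) counted 8451 and 8039 in the WT pair of round libraries and 8597 and 9070 in the KO-labelled pair. Elongating WT libraries counted 15179 and 14993 and elongating KO-labelled ones 26257 and 26449. The elongating KO-labelled libraries stand highest and no 2 groups overlap. In round spermatids Rfx2 rose by 0.10 on the log2 scale (SE 0.03, adjusted p = 0.0347). The call ended without round KO replicate 2 (log2 0.06, adjusted p = 0.249), without round WT replicate 2 (0.06, 0.315) and without elongating WT replicate 1 or 2 (0.10, 0.0634 and 0.0633), and also under DESeq2 and with a replicate block (adjusted p = 0.0529 in each). In elongating spermatids it rose by 0.80 (SE 0.03, adjusted p = 4.55e-11), a 1.75-fold change.

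Sox30 (chromosome 11, 45980310 to 46017994) counted 5044 and 4736 in the WT pair of round libraries and 5025 and 5133 in the KO-labelled pair. In the elongating stage the WT pair counted 8769 and 8988 and the KO-labelled pair 15374 and 15151. The round groups overlap and the elongating groups do not. Its log2 fold change with the knockout label was 0.06 in round spermatids (SE 0.04, adjusted p = 0.263), which did not pass. In elongating spermatids Sox30 rose by 0.78 (SE 0.04, adjusted p = 9.79e-11).

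Tcfl5 (chromosome 2, 180621956 to 180642708) counted 3876 and 3758 in the WT pair of round libraries and 3626 and 3709 in the KO-labelled pair. At the later stage the counts were 6783 and 6642 with WT and 11120 and 10876 with KO label. Round KO-labelled values are the lowest and the groups do not overlap. The round log2 fold change was -0.06 (SE 0.03, adjusted p = 0.218), short of the threshold, but with total-count scaling it was -0.15 and passed (adjusted p = 0.00268). In elongating spermatids Tcfl5 rose by 0.71 (SE 0.03, adjusted p = 1.58e-10). Its end overlaps Col9a3, a collagen gene on the opposite strand, from 180621956 to 180622189. Reads inside this stretch cannot be told apart without strand. Col9a3 counted 100 and 74.2 on average in WT and KO-labelled round libraries and 136 and 100 in elongating ones, far below Tcfl5.

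Between stages the 3 genes changed together. From round to elongating spermatids of the WT, Rfx2 rose by log2 0.87, Sox30 by 0.86 and Tcfl5 by 0.81 with the deposited scaling, whereas total-count scaling turned all 3 to falls (-0.59, -0.61 and -0.65). In KO-labelled spermatids the rises were 1.58, 1.59 and 1.58, or -0.36, -0.35 and -0.36 with total-count scaling. Within a library, where no scaling enters, Rfx2 stood at 1.67 to 1.77 times the Sox30 count in all 8 libraries. The ratio of Rfx2 to Tcfl5 was 2.14 and 2.18 in the WT pair of round libraries and 2.37 and 2.45 in the KO-labelled pair, and 2.24 and 2.26 against 2.36 and 2.43 in the elongating ones. That ratio was thus higher in the KO-labelled libraries of each stage, with no overlap.

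**Figure D2:**
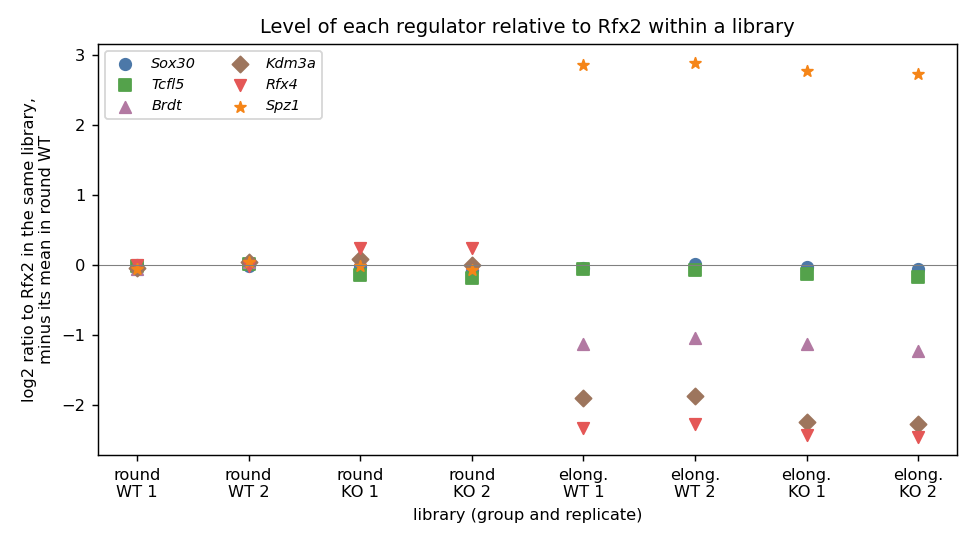
The log2 ratio of each regulator to Rfx2 within a library (vertical axis), set to a mean of 0 in round WT, for the 8 libraries (horizontal axis). Sox30 stays near 0 in every library and Tcfl5 lies slightly below in the KO-labelled ones, while in elongating libraries Spz1 sits near 3, Brdt near -1 and Kdm3a and Rfx4 near -2.

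Spz1 (chromosome 13, 92574636 to 92576172) was the most abundant and had the largest stage change of the 7. It counted 13939 and 14179 in the WT pair of round libraries and 14595 and 14757 in the KO-labelled pair. Elongating WT libraries counted 188805 and 190338 and elongating KO-labelled ones 307700 and 300595. The elongating libraries are all far above the round ones. In the WT it was 13.5-fold higher in elongating than in round spermatids (log2 3.75, SE 0.02, adjusted p = 2.33e-21), and 20.7-fold in KO-labelled cells (log2 4.37). Of the 7, Spz1 alone was also higher in elongating spermatids as a share of all reads, at log2 2.29 in WT and 2.43 in KO-labelled libraries. In elongating spermatids it rose with the knockout label by 0.68 (SE 0.02, adjusted p = 9.14e-12). In round spermatids the value was 0.06 (SE 0.02, adjusted p = 0.0613), short of the threshold, though the groups do not overlap and TMM scaling gave 0.06 with an adjusted p of 0.0382.

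Brdt (chromosome 5, 107331159 to 107387058) counted 4032 and 4085 in the WT pair of round libraries and 4498 and 4594 in the KO-labelled pair. In the elongating stage the WT pair counted 3423 and 3595 and the KO-labelled pair 5913 and 5571. With the deposited scaling its genotypes went opposite ways between stages. In WT cells Brdt fell by log2 0.21 from round to elongating (SE 0.04, adjusted p = 0.000167), while in KO-labelled cells it rose by 0.34 (SE 0.04, adjusted p = 1.19e-06). As a share of all reads it fell in both, at -1.68 and -1.60. With the knockout label Brdt rose by 0.16 in round (SE 0.04, adjusted p = 0.00508) and by 0.71 in elongating spermatids (SE 0.04, adjusted p = 8.48e-10). The round call was lost without round WT replicate 1 (adjusted p = 0.0522).

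Rfx4 (chromosome 10, 84756062 to 84906538) counted 1661 and 1564 in the WT pair of round libraries and 2004 and 2107 in the KO-labelled pair. At the later stage the counts were 594 and 610 with WT and 962 and 950 with KO label. Round KO-labelled libraries are highest and elongating WT lowest. Of the 7, Rfx4 had the largest knockout-label change in round spermatids, a rise of 0.35 (SE 0.05, adjusted p = 0.000109), which also passed with total-count scaling (0.26, adjusted p = 0.00103). In elongating spermatids it rose by 0.67 (SE 0.05, adjusted p = 3.55e-08), but 0.10 with total-count scaling did not pass (adjusted p = 0.0807). From round to elongating spermatids Rfx4 fell, to a level 2.67-fold lower in WT (adjusted p = 8.17e-13) and 2.15-fold lower in KO-labelled cells, while with the same scaling its relative Rfx2 rose.

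Kdm3a (chromosome 6, 71588972 to 71632990) counted 1731 and 1749 in the WT pair of round libraries and 1943 and 1932 in the KO-labelled pair. Elongating WT libraries counted 860 and 868 and elongating KO-labelled ones 1177 and 1165. All 4 groups are apart. From round to elongating spermatids it fell, to a level 2.01-fold lower in WT (adjusted p = 9.44e-12) and 1.65-fold lower in KO-labelled cells. With the knockout label Kdm3a rose by 0.15 in round spermatids (SE 0.04, adjusted p = 0.0147). Leaving out any 1 of the 4 round libraries ended this call, at adjusted p = 0.0694 and 0.0595 without KO replicates 1 and 2 and 0.107 and 0.0761 without WT replicates 1 and 2. In elongating spermatids it rose by 0.44 (SE 0.04, adjusted p = 7.61e-07), the smallest of the 7 changes there. With total-count scaling this became a fall of -0.12 (adjusted p = 0.0188).

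Counted together, 4 of the 7 regulators rose in round KO-labelled spermatids and 0 fell, where 32.0% of all tested genes were called, 19.4% as rises and 12.6% as falls. Their median log2 change was 0.10 against 0.03 for all genes. The 4 were Rfx2, Rfx4, Brdt and Kdm3a, and 2 of them remained called without round KO replicate 2, without round WT replicate 1 or without round WT replicate 2. In elongating KO-labelled spermatids 7 of 7 rose, where 55.0% of all genes were called, 27.3% as rises and 27.7% as falls, with a median of 0.71 against -0.07. Each of the 7 also had a larger knockout-label change in elongating than in round spermatids, a difference called in 36.9% of all genes, 19.3% upwards and 17.5% downwards. From round to elongating spermatids 4 rose and 3 fell in WT, where 81.9% of all genes were called, 41.7% and 40.2% in the same directions, and 5 rose and 2 fell in KO-labelled cells, where 84.3% were called, 42.6% and 41.8%. The stage and knockout contrasts share libraries and are given side by side only.

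The scaling of elongating libraries sets the size and sometimes the sign of these changes. With total-count scaling the median of all genes moved from -0.07 to -0.61 in the elongating knockout contrast and from 0.01 to -1.42 in the WT stage contrast. Relative to the median of all genes, as deposited, the elongating knockout-label changes were 0.88 for Rfx2, 0.85 for Sox30, 0.78 for Tcfl5, 0.75 for Spz1, 0.78 for Brdt, 0.74 for Rfx4 and 0.51 for Kdm3a. With total-count scaling 5 of the 7 were still called higher, Rfx2 by 0.24, Sox30 by 0.22, Tcfl5 and Brdt by 0.15 and Spz1 by 0.12. In round spermatids that scaling left 1 rise, of Rfx4, and gave 1 fall, of Tcfl5. In the stage contrasts it left a rise of Spz1 and falls of the other 6. Of all 15685 tested genes it called 3067 higher and 10799 lower between stages in WT, and 2617 and 11422 in KO-labelled cells. In the knockout contrasts it called 2197 higher and 3059 lower in round, and 1394 and 9854 in elongating spermatids.

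**Figure D3:**
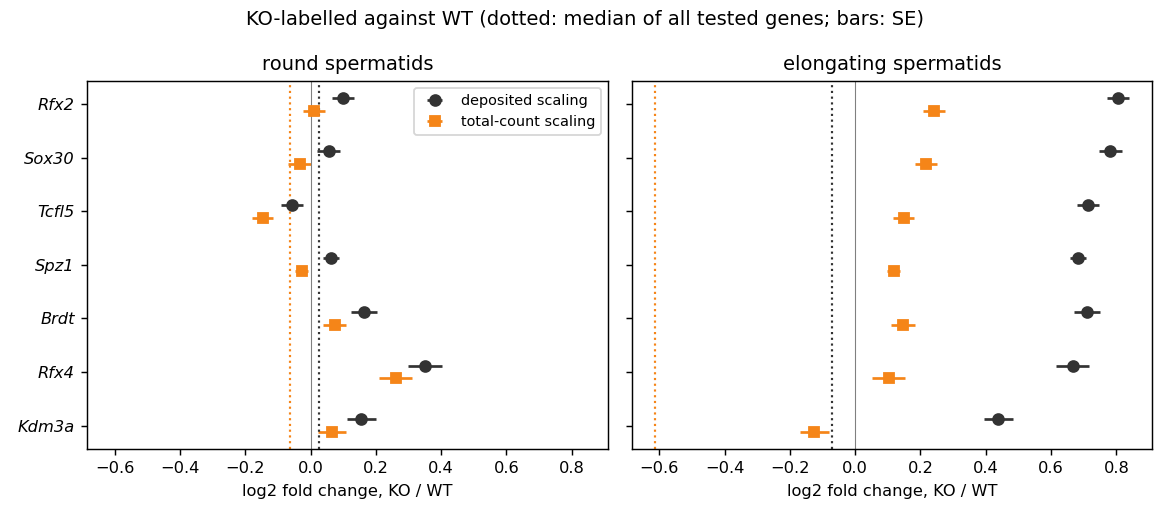
Log2 fold change of KO-labelled against WT (horizontal axis) for the 7 regulators in round and elongating spermatids, with the deposited scaling (circles) and total-count scaling (squares). Bars are SE and dotted lines are the median of all tested genes under each scaling. In elongating spermatids every regulator lies to the right of its dotted line under both scalings.

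**Figure D4:**
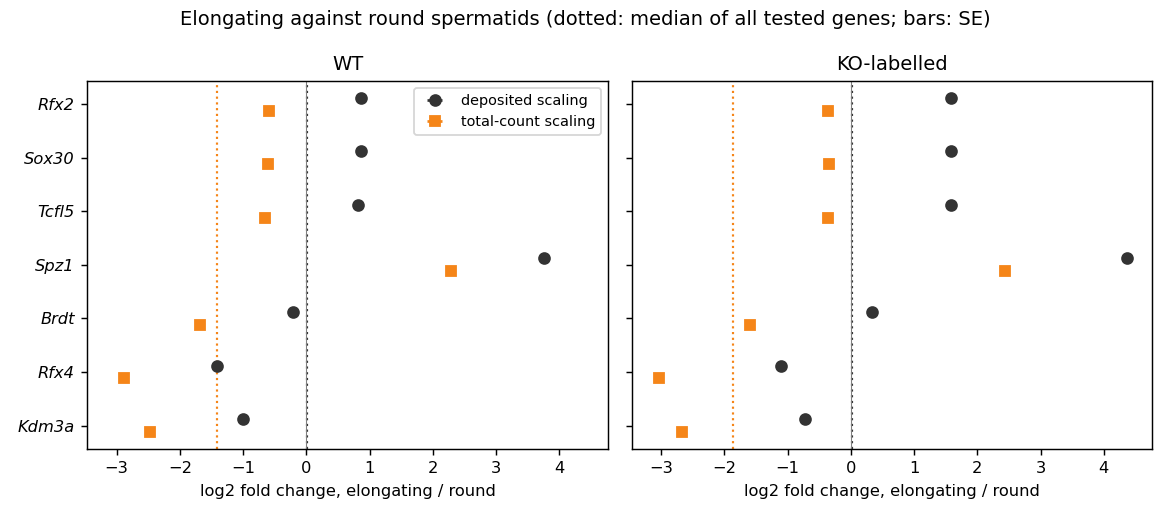
Log2 fold change of elongating against round spermatids (horizontal axis) in WT and KO-labelled libraries, with the same symbols; SE bars are smaller than most symbols. Spz1 is right of 0 under both scalings, Rfx4 and Kdm3a are left of 0 under both, and Rfx2, Sox30 and Tcfl5 change side with the scaling.

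Among the relatives of RFX2, the RFX family and its RFX5 complex had 10 tested genes, of which 4 rose and 0 fell in round KO-labelled spermatids. Beside Rfx2 and Rfx4 these were Rfx1, a broadly expressed member, from 3127 ± 85.5 to 3936 ± 121 (log2 0.33, adjusted p = 3.64e-05), and Rfxank, a subunit of the RFX5 complex, from 135 ± 8.82 to 192 ± 17.4. In elongating spermatids 4 rose and 1 fell. Rfx3, a ciliary gene regulator, rose from 1725 ± 102 to 2573 ± 37.7 (log2 0.58, adjusted p = 1.65e-07) and Rfx1 by 0.17 (adjusted p = 0.0554 without elongating KO replicate 2), while Rfx8 fell from 199 ± 2.27 to 124 ± 7.9. With total-count scaling 1 rose and 5 fell there, Rfx1 turned to -0.40 and Rfx3 no longer passed (0.01, adjusted p = 0.814). The list's median log2 was 0.01 in round and 0.20 in elongating spermatids, against 0.03 and -0.07 for all genes. Of all 15685 tested genes 19.4% rose and 12.6% fell in round, and 27.3% and 27.7% in elongating spermatids. Total-count scaling gave 1394 rises and 9854 falls of all tested genes in elongating ones.

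Genes of intraflagellar transport and the BBS complex, a ciliary class that RFX factors bind, rose in 10 of 34 cases and fell in 3 in round KO-labelled spermatids. Leaving out round KO replicate 1 or 2 or round WT replicate 1 or 2 left 6, 6, 5 and 6 rises. In elongating ones 13 rose and 4 fell (8 and 7 falls without KO replicate 1 and 2), but 2 rose and 25 fell with total-count scaling. The list's medians were 0.10 and 0.09, against 0.03 and -0.07 for all genes. Shares of all 15685 tested genes were 19.4% rises and 12.6% falls in round, and 27.3% and 27.7% in elongating spermatids. With total-count scaling 1394 of all tested genes rose and 9854 fell in elongating ones, so most genes fell there. Ift46, a subunit of the transport train, rose at both stages, from 937 ± 27.8 to 1994 ± 62.4 in round (log2 1.09, adjusted p = 3.35e-09) and from 530 ± 21.6 to 1087 ± 36.7 in elongating spermatids (log2 1.04, adjusted p = 5.26e-10). With total-count scaling its rises were 1.00 and 0.47. Bbs5 fell by 0.23 in round and rose by 0.57 in elongating spermatids, but the elongating rise was lost with total-count scaling (0.01, adjusted p = 0.917). The transport gene Ttc21b rose by 0.29 and then fell by 0.42. Ift43 fell in elongating spermatids from 299 ± 21.5 to 146 ± 9.24 (log2 -1.03, adjusted p = 1.19e-08). In WT cells 28 of the 34 were lower in elongating than in round spermatids and 4 were higher with the deposited scaling. Of all tested genes 40.2% were lower and 41.7% higher. Rfx2 itself was higher with that scaling. With total-count scaling all 34 genes were lower, and so were Rfx2 and 10799 of all 15685 tested genes.

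The SOX family had 15 tested genes, of which 1 rose and 0 fell in round KO-labelled spermatids and 4 rose and 3 fell in elongating ones. With total-count scaling these counts were 1 and 1, and 2 and 8, and with DESeq2 0 of the 3 falls in elongating spermatids passed (Sox3, Sox17 and Sox5, adjusted p = 0.0548, 0.0896 and 0.104). The round call was that of Sox10, which rose from 35.1 ± 0.8 to 85.7 ± 6.48, and ended without round KO replicate 1 or round WT replicate 1 or 2 (adjusted p = 0.0766, 0.0526 and 0.0607). Sox6 went from 1402 to 2229 on average in elongating cells (log2 0.67, adjusted p = 7.59e-09). Spermatid genes grouped here beside Sox30, a list also written from general knowledge, rose in 9 of 14 cases and fell in 2 in round KO-labelled spermatids and rose in 11 and fell in 3 in elongating ones. Total-count scaling gave 5 and 3, and 6 and 7. Of all tested genes 19.4% rose and 12.6% fell in round and 27.3% rose and 27.7% fell in elongating spermatids. Under total-count scaling 2197 of all 15685 rose and 3059 fell in round, and 1394 and 9854 in elongating ones. The list's median log2 was 0.13 and 0.465, against 0.03 and -0.07 for all genes. Its genes Prm1, Prm2, Tnp1, Tnp2, Odf1 and Akap4 are also among the elongating spermatid markers, and the part of that shift was not tested. Tsga8, a spermatid nuclear protein gene, rose in round spermatids by 0.36 and fell in elongating ones by 0.82. The protamine gene Prm2 rose by 0.89 and the transition protein gene Tnp2 by 0.85 in elongating spermatids.

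Mybl1, which encodes A-MYB, counted 461 ± 49.5 in round WT against 424 ± 2.18 in the KO-labelled pair, and 164 ± 9.11 against 153 ± 2.34 at the elongating stage. Its log2 changes of -0.11 (adjusted p = 0.399) and -0.10 (adjusted p = 0.401) did not pass. The pachytene circuit list around A-MYB and TCFL5, which includes Rfx2, Sox30 and Tcfl5, had 13 tested genes, with 5 rises and 1 fall in round and 6 rises and 3 falls in elongating KO-labelled spermatids. Without round KO replicate 1 or 2 or round WT replicate 1, 3 rises were left, and without any of the 4 round libraries 0 falls. With total-count scaling the counts were 2 and 3, and 4 and 8. Mybl1 was among the 8 falls in elongating spermatids under that scaling. So were 9854 of all 15685 tested genes, while 1394 rose, and in round spermatids 2197 rose and 3059 fell. As deposited, 19.4% of all genes rose and 12.6% fell in round, and 27.3% and 27.7% in elongating spermatids. The list's median log2 was 0.10 and 0.05, against 0.03 and -0.07 for all genes. The piRNA pathway gene Tdrd1 rose by 0.52 in round and by 0.23 in elongating spermatids, but the latter was lost without elongating WT replicate 2, under edgeR, under DESeq2 and with only the 4 elongating libraries (adjusted p = 0.126, 0.139, 0.2 and 0.07). It turned to -0.33 with total-count scaling. Tdrd6 and Ddx4, genes of germ cell granules, fell by 0.73 and 0.36 in elongating spermatids.

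Among BET genes, in elongating KO-labelled spermatids Brdt and Brd3 rose and Brd2 fell, from 2083 ± 124 to 1493 ± 112 (log2 -0.48, adjusted p = 1.57e-06). Brd3 fell by 0.19 in round and rose by 0.34 in elongating spermatids, and with total-count scaling the elongating value was -0.23. The acetylation and histone exchange list around BRDT had 6 rises and 4 falls of 17 in round and 8 rises and 4 falls in elongating spermatids, with total-count counts of 1 and 6, and 5 and 10. In round spermatids 3 rises were left without WT replicate 2. Falls numbered 2, 1, 1 and 1 without KO replicate 1, KO replicate 2, WT replicate 1 and WT replicate 2. The list's median log2 was 0.030 and 0.026, against 0.025 and -0.072 for all genes. All 15685 tested genes had 19.4% rises and 12.6% falls in round, and 27.3% and 27.7% in elongating spermatids. Their total-count calls were 2197 rises and 3059 falls in round, and 1394 and 9854 in elongating ones. Ep300, the gene of the acetyltransferase p300, fell at both stages, by 0.44 and 0.40. Hdac1, a histone deacetylase gene, rose by 0.22 in round (adjusted p = 0.165, 0.118 and 0.103 without KO replicate 1, WT replicate 1 and WT replicate 2) and fell by 0.79 in elongating spermatids, and the proteasome activator gene Psme4 rose by 0.82 in elongating ones.

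Of the KDM3 family, Kdm3a alone was called in round KO-labelled spermatids, while Kdm3b and Jmjd1c had log2 changes of 0.14 (adjusted p = 0.19) and -0.01 (adjusted p = 0.92). In elongating spermatids all 3 rose, Kdm3b by 0.23 and Jmjd1c by 0.26, and with total-count scaling all 3 fell. The Kdm3b call was lost without KO replicate 2 and without WT replicate 1 (adjusted p = 0.0587 and 0.0864), and under edgeR, under DESeq2 and with only the 4 elongating libraries (0.136, 0.207 and 0.0739). Other enzymes that add or remove the same histone methylation rose in 3 of 11 cases and fell in 2 in round, and rose in 2 and fell in 3 in elongating spermatids. Total-count scaling gave 2 and 5, and 0 and 10. The round falls numbered 1 without KO replicate 1, KO replicate 2 or WT replicate 1, and 4 without elongating WT replicate 1. The median log2 of these enzymes was -0.09 and -0.20, against 0.03 and -0.07 for all genes. Across all 15685 tested genes 19.4% rose and 12.6% fell in round, and 27.3% and 27.7% in elongating spermatids. Total-count scaling called 2197 of all genes higher and 3059 lower in round, and 1394 and 9854 in elongating ones. The testis methyltransferase gene Suv39h2 fell at both stages, by 0.72 and 0.92, and the demethylase gene Kdm1a rose by 0.42 in round and fell by 0.64 in elongating spermatids. A list of genes linked to KDM3A from general knowledge, Prm1, Prm2, Tnp1, Tnp2 and Crem, rose in 3 of 5 cases in round and 5 of 5 in elongating spermatids, with 0 falls, and in 1 and 5 cases with total-count scaling. All but Crem are also among the 8 elongating spermatid markers, of which 6 rose in round and 8 in elongating KO-labelled spermatids (medians 0.12 and 0.80), and the part of that shift was not tested.

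The remaining spermatid regulators had 4 rises and 0 falls of 18 tested in round KO-labelled spermatids, and 7 rises and 6 falls in elongating ones. With total-count scaling these were 2 and 2, and 3 and 12. Without round WT replicate 1 the round rises were 2, while without round KO replicate 1 there was 1 fall. The list's median log2 was 0.06 and -0.14, against 0.03 and -0.07 for all genes. Among all 15685 tested genes 19.4% rose and 12.6% fell in round, and 27.3% and 27.7% in elongating spermatids. With total-count scaling 2197 of them rose and 3059 fell in round, and 1394 and 9854 in elongating ones. Foxj1, the master regulator of motile cilia, rose from 2811 ± 81.8 to 4516 ± 218 in round spermatids (log2 0.68, adjusted p = 1.54e-07). Ybx2, which encodes a germ cell RNA-binding protein, rose by 0.70 in elongating spermatids and Nr6a1, an orphan nuclear receptor gene, by 0.70. Kctd19 and Tbpl1, the latter the gene of the TBP-like factor, fell by 0.88 and 0.85.

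**Figure D5:**
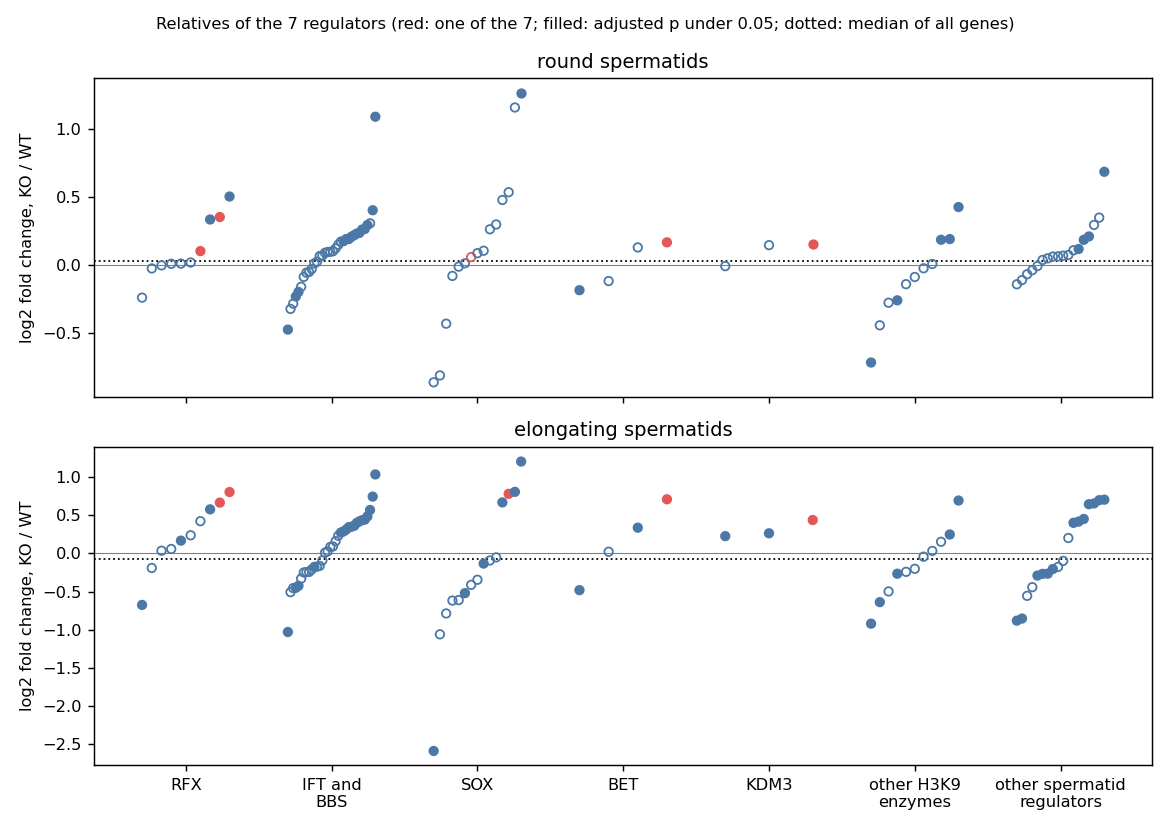
Log2 fold change of KO-labelled against WT (vertical axes) for genes of 7 lists in round (top) and elongating spermatids (bottom), ordered within a list. Red points are regulators described here, filled points have an adjusted p under 0.05, and the dotted line is the median of all tested genes. In elongating spermatids Rfx2 and Rfx4 are the top points of the RFX list and Brdt of the BET list, while Sox10 and Sox1 lie above Sox30 in the SOX list.

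The genes most like each regulator were taken as those with the smallest root mean square difference of log2 values over the 8 libraries, each gene centred on its mean, among 8604 others with a mean of at least 100. Sox30 was the nearest gene to Rfx2 and Rfx2 the nearest to Sox30, with a difference of 0.03 on the log2 scale. Next to Rfx2 came Abi2 at 0.03 and Ing1 at 0.05, and next to Sox30 came Abi2 and Gsk3b at 0.05 each. Nearest to Tcfl5 was Cfl2 at 0.02, followed by Usp16 and Kansl1, and nearest to Spz1 was Atp1b3 at 0.02, followed by Isg20l2 and Tle3. For Brdt these were Papola, Dus1l and Rnf216 at 0.04 to 0.05, for Kdm3a Plekha5, Cd164 and Trmt10a at 0.04, and for Rfx4 Cluh, Slc13a5 and Ubap1 at 0.08 to 0.10. The 8 libraries form 4 groups and share their scaling, so such likeness rests on few independent points.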

How the data were processed

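The deposited table holds a signal per gene and library, gene counts divided by a size factor by the authors. Per the submitters' processing notes, DESeq 1.16.0, HTSeq 0.6.0, TopHat2 2.0.10 and CASAVA 1.8.2 were used with mm10 and GRCm38. Neither the role of each tool nor the strand setting nor the annotation is named there. Per the labels, libraries were made with the TruSeq RNA Library Prep Kit v2, a kit known not to mark strand. Within a library, values divided by the smallest one above 0 came out whole in 100% of cases (tolerance 1e-06), which recovers the reads.

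The values are not raw counts, so genes were tested in R 4.3.3 by limma 3.58.1, with a mean-dependent prior variance, as log2(value + 1), a scale that understates changes of low genes. All 8 libraries entered 1 model of 4 group means with 4 residual degrees of freedom, and p-values were Benjamini-Hochberg adjusted over 15685 genes. On the recovered reads edgeR 4.0.16 (quasi-likelihood) and DESeq2 1.42.0 were run as alternatives, beside other pseudocounts, filters, scalings and left-out libraries. Recovered reads per library were 17190962 to 23526694. The members and lists were chosen with earlier results of these data known, and several lists share genes. From each other list, genes were named by 1 rule for the knockout contrasts: all called genes where at most 5 were called, otherwise up to 3 with the largest rises and 3 with the largest falls, of which the text gives a part. Kdm3b, Jmjd1c, Mybl1 and the overlapping gene Col9a3 were named beside this rule, after their values were seen.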

Additional observations from a re-analysis of the deposited data

Results flagged for a closer look

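The knockout-label change differed between stages, tested as the elongating minus the round log2 change in the same limma model (adjusted p under 0.05). For the regulators the differences were Rfx2 at 0.70, Sox30 at 0.73, Tcfl5 at 0.77, Spz1 at 0.62, Brdt at 0.55, Rfx4 at 0.32 and Kdm3a at 0.28, with SE from 0.03 to 0.07. Each had the larger value in elongating spermatids. With total-count scaling Rfx4 and Kdm3a had the opposite sign and Brdt did not pass. Carm1, which fell in round and rose in elongating KO-labelled libraries, differed by 1.28.

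Among related genes reported at both stages, larger values in elongating spermatids were found for Jmjd1c at 0.28, Bbs5 at 0.81, Tnp2 at 0.54, Brd3 at 0.53, Kdm4b at 0.96, Prm1 at 0.59, Prm2 at 0.78 and Ybx2 at 0.50. With total-count scaling Bbs5 (0.33), Kdm4b (0.48) and Prm2 (0.31) still passed, whereas Tnp2 (0.06), Brd3 (0.05), Prm1 (0.12) and Ybx2 (0.02) did not (adjusted p = 0.311, 0.423, 0.151 and 0.575) and Jmjd1c turned to -0.20 (0.0859). Smaller values were found for Rfx1 at -0.16, Ttc21b at -0.71, Tsga8 at -1.18, Catsper1 at -0.16, Tdrd1 at -0.30, Ddx4 at -0.51, Hdac1 at -1.01, Kdm1a at -1.06, Kdm4d at -0.45 and Gtf2a1l at -0.40, and with total-count scaling each of these was below 0 and passed. Those of Rfx1 (adjusted p = 0.0481), Tdrd1 (0.0499), Catsper1 (0.0346) and Jmjd1c (0.0257) were close to the threshold.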

How the results depend on the processing

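Of 658 changes of the 7 regulators recomputed under alternatives, 615 kept their direction and side of the threshold. Leaving aside the scalings on library totals, 576 of 588 did and 0 reversed. These include all 119 values of the elongating knockout contrast, 238 of the stage contrasts and 112 of the stage difference. Other filters, other pseudocounts, the replicate block and leaving out a library of another group hardly move a regulator's log2 change. Such alternatives could not turn its sign, so these counts say little about how firm a direction is. With total-count scaling the regulators called higher and lower were 1 and 1 in round and 5 and 1 in elongating knockout contrasts, 4 and 1 for the difference between stages, and 1 and 6 in each stage contrast. With library sizes taken without the 50 most abundant genes they were 1 and 1 in the round knockout and 1 and 6 in the WT stage contrast. In the KO-labelled stage contrast Rfx2, Sox30 and Tcfl5 kept their rises under this scaling, with a median of 0.11 for the 7 regulators. In the elongating knockout contrast only Kdm3a lost its rise, at -0.065. Leaving out 1 library gave 2 to 4 rises in round spermatids, with 2 left without round KO replicate 2 and without round WT replicate 1 or 2. The cause of these changes was not tested, but scalings differ by a constant per library.

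Reversed values are given for total-count scaling and then for library sizes without the 50 most abundant genes. In the elongating knockout contrast Kdm3a was at -0.12 and -0.065, Rfx1 at -0.40 and -0.34, Tdrd1 at -0.33 and -0.27, Brd3 at -0.23 and -0.17, Jmjd1c at -0.30 and -0.24, Kdm3b at -0.33 and -0.27 and Ehmt2 at -0.32 and -0.26. For the difference between stages Rfx4 was at -0.16 and -0.10 and Kdm3a at -0.19 and -0.13. In the WT stage contrast Rfx2 was at -0.59 and -0.18, Sox30 at -0.61 and -0.19 and Tcfl5 at -0.65 and -0.24, and Carm1 at -0.061 with total-count scaling. In the KO-labelled stage contrast Brdt was at -1.60 and -1.13, and with total-count scaling Rfx2 was at -0.36, Sox30 at -0.35 and Tcfl5 at -0.36.

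Counts of all genes called higher and lower were 3041 and 1977 in the round and 4279 and 4348 in the elongating knockout contrast, 3031 and 2750 for the difference, and 6548 and 6300, and 6677 and 6552, in the WT and KO-labelled stage contrasts. Total-count scaling gave 2197 and 3059, 1394 and 9854, 858 and 7070, 3067 and 10799, and 2617 and 11422. Library sizes without the 50 most abundant genes gave 2194 and 3002, 1644 and 9306, 1059 and 6412, 3848 and 9738, and 3396 and 10393. For falls in the round contrast edgeR gave 3163, and 1239 and 1182 were left without round WT replicates 1 and 2. For falls in the elongating contrast DESeq2 gave 2760. The replicate block, the replicate number as a term, left 3 rises in round spermatids and changed no other regulator's call. Correlations of same-numbered libraries' deviations from their group means were between -0.09 and 0.03 across groups, so no shared deviation was seen. With 2 libraries a group this cannot tell if same-numbered libraries came from the same animals.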
